A study of Macaca fascicularis with 10 samples.

Results

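Amino acid transporter genes were followed across 3 groups of cynomolgus monkey (Macaca fascicularis) cells on Affymetrix Rhesus Macaque arrays. Members were all genes whose annotated symbol begins with SLC1A, SLC3A, SLC6A, SLC7A, SLC36A, SLC38A or SLC43A and a number. Of 14132 genes with a probe set of a single symbol, 49 were members, and each was read from its brightest probe set (highest mean log2 signal over the 10 arrays). The filter on dim signals, which asked for a signal above the array's median on at least 2 arrays, left 39 members of 11639 genes tested. One of the 39, SLC7A6OS, carries the name of the SLC7A6 locus but is not a transporter.

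Cells take up most amino acids through solute carriers, whose families differ in substrate and in the ion or amino acid that drives the transport. SLC1 members carry glutamate or small neutral amino acids. SLC7 members are either cationic amino acid carriers or light chains that reach the membrane bound to an SLC3 heavy chain. SLC6 members use sodium and chloride and include carriers of creatine, taurine and amine transmitters. SLC36 and SLC38 members move neutral amino acids across the cell surface and the lysosome, and some of them take part in signalling to mTORC1, the kinase complex that ties growth to amino acid supply.

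Parthenogenetic haploid embryonic stem cells (PG-haESCs), which are derived from activated eggs without sperm and were labelled haploid, gave 5 arrays. Line MPH1 gave 4 of them at passages 8, 11, 7 and 9 (arrays 1 to 4) and line MPH2 gave array 5 at passage 4. Within line MPH1 the descriptions carry the code M1 for arrays 1 and 2 and M2 for arrays 3 and 4. Diploid ESCs from blastocysts made by intracytoplasmic sperm injection (ICSI ESCs) gave 3 arrays, each of another line, at passages 12, 4 and 4. Cells labelled diploid female somatic fibroblasts, titled MF and called so below, gave 2 arrays at passages 14 and 15. The study used ICSI ESCs and MF cells as its controls. The growth protocol describes culture on feeder cells with Y27635 and Thiazovivin, inhibitors of the kinase ROCK, and it names PG-haESCs only. No label says whether the codes or the passages of 1 line mark separate cultures. The p-values thus reflect only how these samples vary, which may in part be technical variation.

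The values are MAS5 signals, linear brightness per probe set, and array medians ran from 76.8 to 133. No detection calls were used, so a signal at or below its array's median is treated as dim rather than as an expression level. The 9 pluripotent cell markers averaged 11.53 to 12.25 log2 on PG-haESC arrays, 11.36 to 12.16 on ICSI ESC arrays and 5.87 to 6.18 on MF arrays. On MF arrays 2 and 3 of the 9 lay above the median. NANOG, 1 of these, was not lower there, with signals of 2083 and 1904 against geometric means of 1604 in PG-haESCs and 1692 in ICSI ESCs. All 11 fibroblast and feeder markers lay above the median on MF arrays (mean 13.07 and 13.08 log2), but so did all 10 epidermal keratinocyte markers (14.1 and 14.14, against 5.07 to 6.45 on ESC arrays) and all 6 leukocyte markers (9.61 and 9.67, against 4.67 to 5.80). The 6 endothelial markers averaged 8.76 and 8.48 log2 on MF arrays, 5 of them above the median on each, against 6.17 to 7.22 on ESC arrays. Of 7 melanocyte markers, 4 and 6 lay above the median on MF arrays, against 1 to 3 on ESC arrays. MITF, 1 of the 7, went the other way, with geometric means of 3010 in PG-haESCs and 4222 in ICSI ESCs against 469 in MF cells. Among fibroblast and feeder markers, TAGLN (5768 and 5681 against 3574) and THY1 (1872 and 2323 against 1699) were not lower in ESCs. FN1 averaged 16540 and 25800 against 20450. Of the 11 markers limma called 1 lower in PG-haESCs and 2 in ICSI ESCs than in MF cells. CD68, a leukocyte marker, averaged 349 and 257 against 279, and KDR, an endothelial marker, 79.0 and 82.9 against 30.1, a dim signal. None of the markers was at 0 on any array. Differences from MF cells are thus differences from samples in which epidermal, most leukocyte and endothelial, and some melanocyte markers were high too. The part of these markers in the results was not tested. On ESC arrays the fibroblast and feeder markers averaged 9.12 to 12.86 log2, and ICSI ESC array 1 had the highest value. In RNA of whole cultures, fewer cells of a type and less RNA per cell cannot be told apart.

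**Figure D1:**
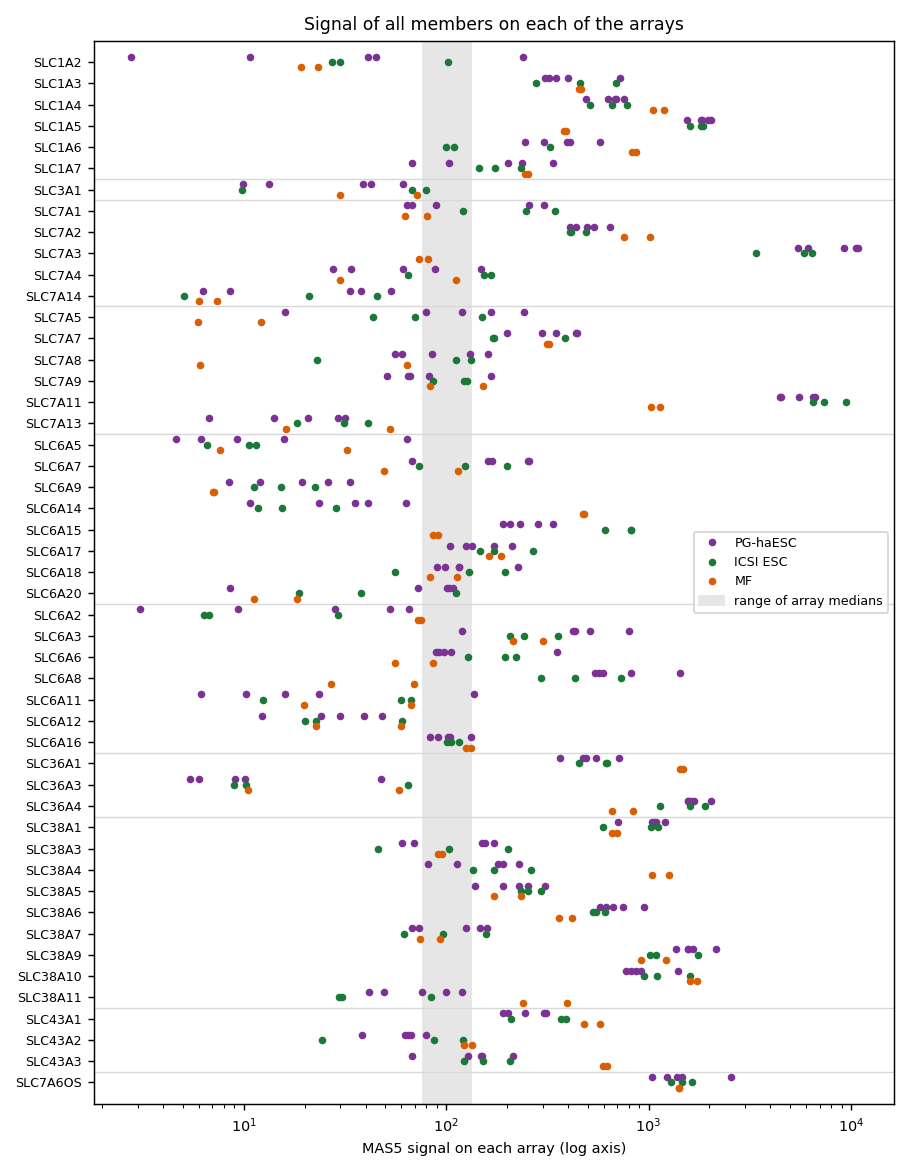
MAS5 signal (log axis) of each of the 49 members on each of the 10 arrays, with PG-haESC, ICSI ESC and MF arrays as coloured points and the range of array medians (76.8 to 133) shaded. Brightness of different probe sets is not comparable, so rows should be read 1 at a time; 10 of the members lay at or under the median on all 5 PG-haESC arrays, 12 on all 3 ICSI ESC arrays and 21 on both MF arrays.

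Many members were dim in these cells. Of the 49, 21 lay above the array median on all 5 PG-haESC arrays, 26 on all 3 ICSI ESC arrays and 25 on both MF arrays. Since the groups have unequal numbers of arrays, these counts are not compared with each other. The 10 members that were not tested were SLC1A2, SLC36A3, SLC3A1, SLC6A11, SLC6A12, SLC6A2, SLC6A5, SLC6A9, SLC7A13 and SLC7A14. Genes such as SLC3A2, SLC38A2, SLC7A6 and SLC1A1 were not named for any probe set by the annotation, and no value is given for them.

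Setting PG-haESCs beside ICSI ESCs asked whether transporter genes differ between haploid ESCs of maternal origin and ESCs of a fertilised embryo. Of 39 members, 1 fell in PG-haESCs (SLC6A15) and 0 rose, and 38 did not pass (limma, adjusted p under 0.05 over 34140 probe sets). Among all genes tested 0.576% were called, 0.507% higher and 0.0687% lower. At an unadjusted p under 0.05 there were 3 members, SLC6A15, SLC1A6 and SLC7A11. The median log2 change of the members was 0.07, beside -0.02 over all genes tested. The PG-haESC and ICSI ESC arrays did not overlap for 1 of the 39 members, again SLC6A15, beside 8.29% of all genes. Markers of endoderm moved beside these results. All 8 tested had estimates below 0 in PG-haESCs (median log2 change -1.70, 0 called by limma, 3 at an unadjusted p under 0.05). They averaged 7.02 to 10.58 log2 on PG-haESC arrays, 9.65 to 11.09 on ICSI ESC arrays and 6.23 to 6.67 on MF arrays, and their part in the results was not tested.

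SLC6A15 encodes B0AT2, a sodium-coupled carrier of branched-chain amino acids and proline best known from neurons. Its signals were 285, 208, 232, 336 and 192 on PG-haESC arrays 1 to 5, against 607, 815 and 820.4 on ICSI ESC arrays 1 to 3. All PG-haESC signals lay below all ICSI ESC signals, and all 8 lay above their array medians. The geometric mean was 245 over the 5 PG-haESC arrays (SD 0.33 log2) and 741 over the 3 ICSI ESC arrays (SD 0.25 log2). The signal was 3.13-fold lower in PG-haESCs (log2 change -1.65 ± 0.30 SE, limma, adjusted p = 0.0395). The endoderm markers lay lower in PG-haESCs too, and their part in this difference was not tested.

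The call of SLC6A15 was close to the threshold. Over 22 alternatives its log2 change ran from -1.76 to -1.51 and its adjusted p from 0.00965 to 0.36, and the call was lost in 14. It was lost without PG-haESC array 1 (0.0816), 2 (0.0616), 3 (0.103) or 5 (0.062), without the ICSI ESC arrays 2 (0.136) or 3 (0.192), and without MF array 1 (0.0564) or 2 (0.0566), which enter the shared estimate of spread. It was kept when PG-haESC array 4 was left out (0.0483) or ICSI ESC array 1 (0.0204), the array with the highest fibroblast and feeder markers. On the arrays of passage 4 alone, the signals were 192 in line MPH2 and 815 and 820.4 in lines MES2 and MES3.

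MF cells had lower SLC6A15 than both ESC groups, with signals of 91.1 and 86.0 that lay below their array medians of 121 and 110.2. The ranges of the 3 groups did not overlap. SLC6A15 was at least 2.12-fold higher in PG-haESCs than in MF cells (log2 change 1.42 ± 0.37, limma, adjusted p = 0.0098) and at least 6.40-fold higher in ICSI ESCs than in MF cells (3.07 ± 0.37, adjusted p = 5.7e-05). Here and below, "at least" marks a fold taken against a dim group whose signals were raised to their array medians. Averaging the arrays of each line ended the call between PG-haESCs and MF cells (adjusted p = 0.067).

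**Figure D2:**
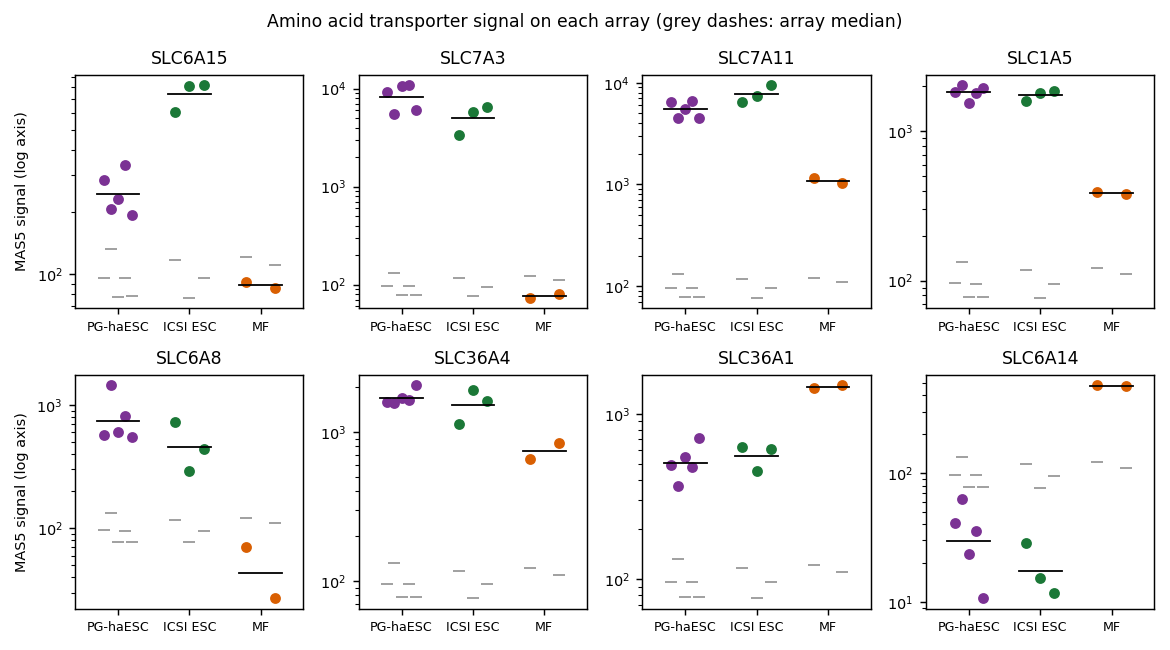
MAS5 signal (log axis) of 8 members on each PG-haESC, ICSI ESC and MF array, with a black bar at each group's geometric mean and a grey dash at each array's median. SLC6A15 lies lower on all 5 PG-haESC arrays (192 to 336) than on the 3 ICSI ESC arrays (607 to 820.4), while SLC7A3, SLC7A11, SLC1A5, SLC6A8 and SLC36A4 are higher, and SLC36A1 and SLC6A14 lower, in both ESC groups than in MF cells.

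The comparisons with MF cells asked how transporter genes of ESCs differ from those of differentiated cells. PG-haESCs had 7 of 39 members higher and 6 lower than MF cells, and 26 did not pass, beside 40.3% of all genes called (23.0% higher and 17.3% lower). ICSI ESCs had 6 of 39 members higher and 8 lower than MF cells, and 25 did not pass, beside 39.6% of all genes called (22.6% higher and 17.0% lower). Of the tested members, 2 (SLC38A11 and SLC6A14) passed the filter only through MF arrays, and 11 had no MF array above the median and passed through ESC arrays alone. Of these 11, 3 were called in each comparison, SLC6A15, SLC6A8 and SLC7A3, all higher in ESCs. The members' shares lie near these backgrounds and so are no result about transporters as a group. Median log2 changes of the members were 0.16 for PG-haESCs and 0.12 for ICSI ESCs against MF cells, beside 0.06 and 0.08 over all genes. Averaging the arrays of each line left 7 calls for PG-haESCs, and leaving out MF array 1 left 9 for ICSI ESCs. Groups did not overlap for 22 members between PG-haESCs and MF cells (all genes 64.2%) and for 25 between ICSI ESCs and MF cells (all genes 69.5%).

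Both comparisons use the MF arrays, so their values stand side by side and are not 2 independent results. Members that rose in both were SLC1A5, SLC36A4, SLC6A15, SLC6A8, SLC7A11 and SLC7A3, and SLC38A6 rose in PG-haESCs alone by this threshold. Members that fell in both were SLC1A4, SLC36A1, SLC38A11, SLC38A4, SLC43A3 and SLC6A14, and SLC1A6 and SLC7A2 fell in ICSI ESCs alone by this threshold. None of these 3 genes passed the test between PG-haESCs and ICSI ESCs. The remaining 24 members passed in neither comparison with MF cells. With arrays centred on their medians, which moved the median of all genes to 0.39 for PG-haESCs and 0.36 for ICSI ESCs, the counts became 8 higher and 3 lower for PG-haESCs and 6 higher and 5 lower for ICSI ESCs.

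The calls against MF cells differed in how far they depended on the processing. SLC7A3, SLC7A11, SLC1A5 and SLC6A8 kept theirs in all 22 alternatives in both ESC groups, as did SLC36A4 in PG-haESCs and SLC6A15 and SLC1A6 in ICSI ESCs. Calls were lost in 3 alternatives for SLC36A4 in ICSI ESCs and for SLC38A6 in PG-haESCs, in 7 for SLC7A2 in ICSI ESCs, in 3 (PG-haESC) and 2 (ICSI ESC) for SLC36A1, and in 1 and 3 for SLC43A3. SLC1A4 lost its call in 7 alternatives in PG-haESCs and in 13 in ICSI ESCs, where 1 more turned its sign. SLC38A11, which 21 of the alternatives tested, lost it in 11 and 2. With a gene's probe sets averaged, adjusted p was 0.24 and 0.723 for SLC36A1, 0.115 and 0.198 for SLC43A3, and 0.608 for SLC7A2 in ICSI ESCs.

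**Figure D3:**
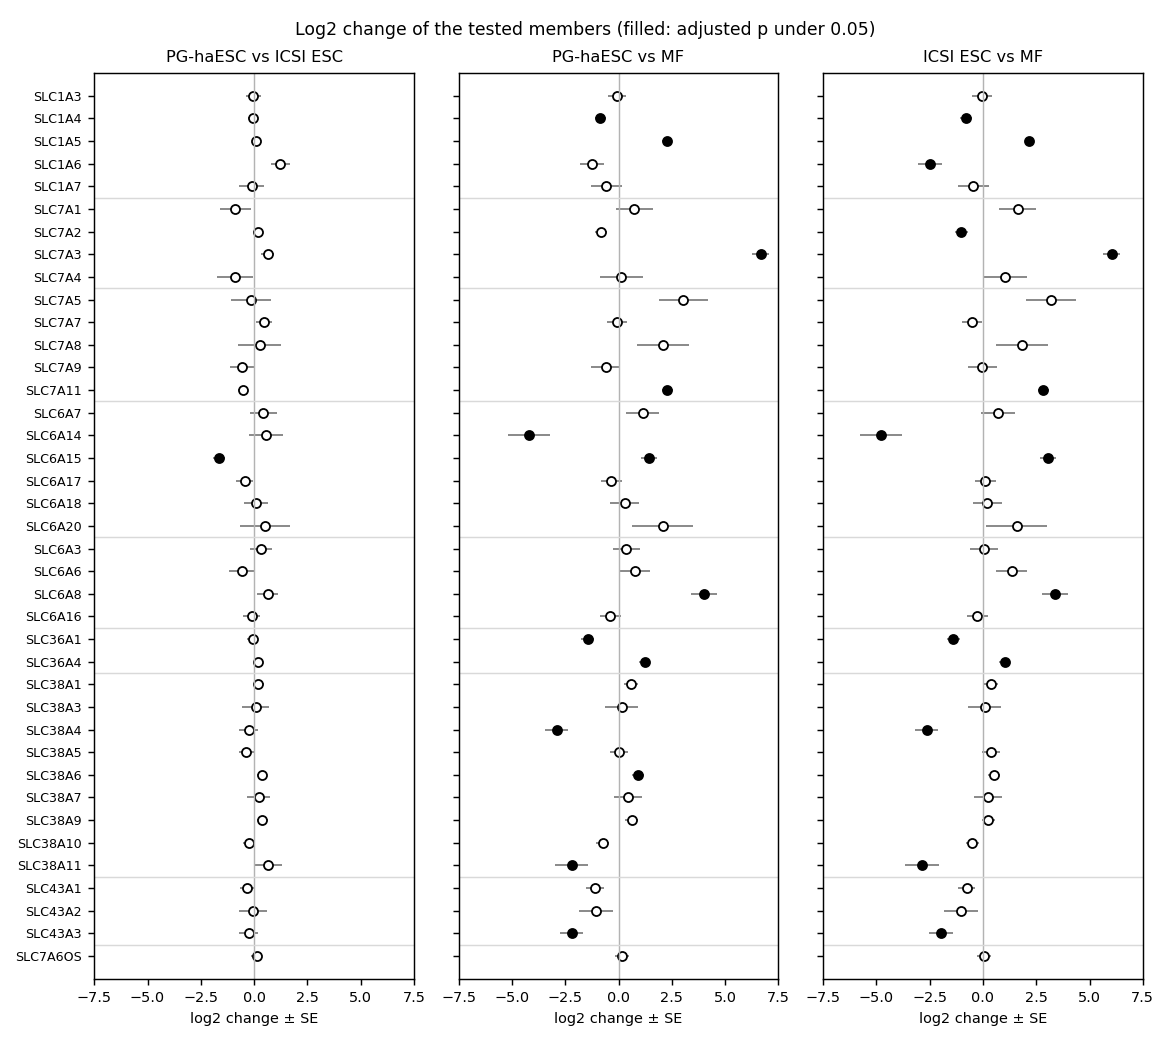
Log2 change ± SE (limma) of the 39 tested members in each of the 3 comparisons, ordered by family, with filled points at an adjusted p under 0.05. SLC6A15 is the 1 filled point between PG-haESCs and ICSI ESCs, and against MF cells the changes run from -4.22 (SLC6A14) to 6.66 (SLC7A3) in PG-haESCs and from -4.78 to 6.03 for the same genes in ICSI ESCs.

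Among the 5 SLC1 members tested, 1 rose and 1 fell in PG-haESCs against MF cells, and 1 rose and 2 fell in ICSI ESCs. SLC1A5 (ASCT2), an exchanger that brings glutamine and other neutral amino acids into cells, had signals of 1828, 2041, 1549, 1811 and 1960 in PG-haESCs, 1606, 1813 and 1857 in ICSI ESCs and 392 and 383 in MF cells. The ESC arrays overlapped each other and all lay above the MF arrays. It was 4.77-fold higher in PG-haESCs (log2 change 2.25 ± 0.20, adjusted p = 6.0e-06) and 4.53-fold higher in ICSI ESCs (2.18 ± 0.20, adjusted p = 8.9e-06) than in MF cells. Between PG-haESCs and ICSI ESCs its log2 change was 0.07, with a 95% interval from -0.29 to 0.44. Over the 8 ESC arrays SLC1A5 spanned a range of 1.32-fold, the narrowest of all 49 members.

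SLC1A4 (ASCT1), a carrier of alanine, serine and cysteine, had signals of 492 to 753 in PG-haESCs (median 680), 516 to 784 in ICSI ESCs and 1196 and 1048 in MF cells. On this probe set it fell in PG-haESCs (log2 change -0.86, adjusted p = 0.027) and in ICSI ESCs (-0.80, adjusted p = 0.039) against MF cells. A dimmer probe set of SLC1A4, on which both MF signals lay below their array medians, had the opposite sign. On it SLC1A4 was at least 1.80-fold higher in ICSI ESCs (adjusted p = 0.033), and PG-haESCs did not pass (adjusted p = 0.10). The direction of SLC1A4 is therefore uncertain. Its calls were also lost without MF array 1 or 2, with adjusted p of 0.132 and 0.061 for PG-haESCs and 0.165 and 0.0794 for ICSI ESCs. In ICSI ESCs the call was further lost without PG-haESC array 1, 2, 3 or 4 (0.0506 to 0.0584), which share in the estimate of spread, and without ICSI ESC array 1 (0.0634) or 3 (0.0699).

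SLC1A6 (EAAT4), a glutamate transporter of Purkinje cells, differed among ESC arrays. It had 573, 409, 397, 246 and 303 in PG-haESCs, 99.9, 110 and 325 in ICSI ESCs and 870 and 830.2 in MF cells. ICSI ESC array 3 overlapped the PG-haESC arrays, and ICSI ESC arrays 1 and 2 lay below them. The signal on ICSI ESC array 1 was dim (array median 117), so changes from ICSI ESCs rest in part on a dim signal. The log2 change between PG-haESCs and ICSI ESCs was 1.23 ± 0.45 (adjusted p = 0.46, 95% interval 0.26 to 2.21). Against MF cells SLC1A6 was lower in ICSI ESCs (log2 change -2.48 ± 0.55, adjusted p = 0.0042), and in PG-haESCs the change was -1.24 ± 0.55 (adjusted p = 0.10).

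The cationic SLC7 carriers held the member with the largest change from MF cells, SLC7A3 (CAT3), which carries arginine and lysine. Its signals were 9242, 5475, 10590, 10840 and 6115 on PG-haESC arrays 1 to 5, 3387, 5838 and 6453 on ICSI ESC arrays 1 to 3, and 73.3 and 81.1 on MF arrays. Both MF signals lay below their array medians, and every ESC signal was far above. SLC7A3 was at least 70.3-fold higher in PG-haESCs (log2 change 6.66 ± 0.38, adjusted p = 1.9e-07) and at least 43.5-fold higher in ICSI ESCs (6.03 ± 0.39, adjusted p = 5.1e-07) than in MF cells.

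Between PG-haESCs and ICSI ESCs, SLC7A3 had geometric means of 8130 (SD 0.46 log2) and 5034 (SD 0.50 log2). Its log2 change of 0.63 ± 0.32 did not pass (adjusted p = 0.74, 95% interval -0.05 to 1.32), and the arrays overlapped. SLC7A3 lies on the X chromosome (assembly T2T-MFA8v1.1), and the median log2 change of the 380 X-linked genes tested was 0.67, with 36 called higher and 0 lower in PG-haESCs. The other 3 X-linked members had log2 changes of 0.64 (SLC6A8), 0.56 (SLC6A14) and -0.36 (SLC38A5), with adjusted p from 0.93 to 0.98. That of SLC6A14 is a difference between dim signals, since all 8 ESC arrays lay below their medians for it. An X-linked level relative to the rest of the array was not tested here.

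Of the other cationic carriers, SLC7A2 (CAT2) had 407 to 644 in PG-haESCs, 411 to 489 in ICSI ESCs and 759 and 1022 in MF cells. It fell in ICSI ESCs against MF cells (log2 change -1.01, adjusted p = 0.023), and the PG-haESC change was -0.82 (adjusted p = 0.053). Centring on array medians gave -0.73 in ICSI ESCs (adjusted p = 0.257). The call in ICSI ESCs was lost without ICSI ESC array 3 (0.0551) or MF array 2 (0.139), and its other 4 probe sets did not pass. SLC7A1 (CAT1), the widespread arginine carrier, had 249.6, 345 and 122 in ICSI ESCs against 80.9 and 62.6 in MF cells (log2 change 1.62 ± 0.88, adjusted p = 0.19). In PG-haESCs its signals split into 256 and 304 on arrays 1 and 2 and 64.1, 68.0 and 89.1 on arrays 3 to 5. Arrays 1 and 2 carry code M1 and arrays 3 and 4 code M2, whose part in this split was not tested. The signals on arrays 3 and 4 were dim.

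Among the SLC7 light chains 1 of 5 rose in each ESC group against MF cells, and 0 fell. This was SLC7A11 (xCT), which exports glutamate in exchange for cystine, a source of cysteine for glutathione. SLC7A11 had signals of 6495, 4530, 5517, 6653 and 4480 in PG-haESCs, 6507, 7333 and 9460 in ICSI ESCs and 1144 and 1028 in MF cells. Every ESC array lay above both MF arrays. It was 4.89-fold higher in PG-haESCs (log2 change 2.29 ± 0.25, adjusted p = 2.7e-05) and 7.07-fold higher in ICSI ESCs (2.82 ± 0.25, adjusted p = 6.0e-06) than in MF cells. Its second probe set, dim on both MF arrays, was at least 1.49-fold higher in PG-haESCs and at least 1.496-fold higher in ICSI ESCs (adjusted p = 0.031 and 0.029). Between PG-haESCs and ICSI ESCs the log2 change was -0.53 ± 0.21 (adjusted p = 0.53, 95% interval -0.98 to -0.08), and PG-haESC array 4 reached above the lowest ICSI ESC array.

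SLC7A5 (LAT1), the main carrier of leucine and other large neutral amino acids, had 79.7, 119, 243, 166 and 16.0 in PG-haESCs, 70.5, 151 and 43.4 in ICSI ESCs and 12.2 and 5.98 in MF cells. The signals differed 15.2-fold between ESC arrays, from PG-haESC array 5 to PG-haESC array 3, the widest such range among members above the array median on at least 2 ESC arrays. The low end, 16.0, was dim (array median 78), so this fold is not one between expression levels. Its log2 changes against MF cells were 3.04 ± 1.16 for PG-haESCs (adjusted p = 0.061) and 3.18 ± 1.17 for ICSI ESCs (adjusted p = 0.054). Of its signals only 2 in PG-haESCs, 1 in ICSI ESCs and 0 in MF cells lay above the array median, which allows no fold. SLC7A8 (LAT2) ranged 6.97-fold among ESC arrays, from 23.2 on ICSI ESC array 2 to 161 on PG-haESC array 2. Its low end was dim too (array median 76.8). The heavy chain SLC3A1, partner of the light chain SLC7A9 in kidney and gut, had 9.98 to 61.1 in PG-haESCs, 9.77 to 79.9 in ICSI ESCs and 71.9 and 29.8 in MF cells, all below their array medians.

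Within the 6 SLC6 amino acid carriers tested, SLC6A15 rose and SLC6A14 fell in both ESC groups against MF cells. SLC6A14 (ATB0,+) is an X-linked carrier of neutral and cationic amino acids found in epithelia. Its signals were 41.2, 63.3, 23.5, 35.3 and 10.7 in PG-haESCs, 28.6, 15.5 and 11.8 in ICSI ESCs and 478 and 474 in MF cells. The signals on all 8 ESC arrays lay below their array medians, and both MF signals lay above, so it entered the test only through the MF arrays, and 19 of the 22 alternatives tested it. Compared with MF cells, PG-haESCs had at least 5.05-fold lower SLC6A14 (log2 change -4.22 ± 0.99, adjusted p = 0.0056) and ICSI ESCs at least 5.003-fold lower (-4.78 ± 0.99, adjusted p = 0.0027). The epidermal markers moved the same way, with all 10 lower in both ESC groups, and their part in this result was not tested. Averaging arrays per line ended the call in PG-haESCs (adjusted p = 0.0621). SLC6A20, a proline and imino acid carrier, ranged 13.2-fold among ESC arrays, from 8.52 on PG-haESC array 2 to 112 on ICSI ESC array 3. The low end was dim (array median 133), and SLC6A20 did not pass in any comparison.

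The creatine transporter gene SLC6A8 rose in both ESC groups, as 1 of 4 members tested among SLC6 carriers of amines, taurine, creatine and related compounds. It had 567, 1436, 597, 819 and 545 in PG-haESCs, 729, 293 and 435 in ICSI ESCs and 69.8 and 27.1 in MF cells. Both MF signals were below their array medians. SLC6A8 was at least 6.37-fold higher in PG-haESCs (log2 change 4.02 ± 0.61, adjusted p = 0.00031) and at least 3.92-fold higher in ICSI ESCs (3.38 ± 0.62, adjusted p = 0.0012). The name of its probe set marks probes that can match more than 1 transcript, so the source of this signal is uncertain.

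Both SLC36 members tested changed against MF cells, in opposite directions. SLC36A4 (PAT4), a carrier with high affinity for proline and tryptophan, had 1575, 1567, 1677, 1630 and 2041 in PG-haESCs, 1135, 1908 and 1609 in ICSI ESCs and 657 and 839 in MF cells. It was 2.34-fold higher in PG-haESCs (log2 change 1.23 ± 0.26, adjusted p = 0.0027) and 2.04-fold higher in ICSI ESCs (1.03 ± 0.26, adjusted p = 0.0084), and its second probe set rose too, by 0.93 and 1.22 log2 (adjusted p = 0.016 and 0.0035). The call in ICSI ESCs was lost without MF array 1 (0.0658). SLC36A1 (PAT1), a proton-coupled exporter of small amino acids from lysosomes, had 490.1, 363, 548, 475 and 719 in PG-haESCs, 627, 453 and 614 in ICSI ESCs and 1435 and 1483 in MF cells. It was 2.74-fold lower in PG-haESCs (-1.45 ± 0.31, adjusted p = 0.0031) and 2.61-fold lower in ICSI ESCs (-1.39 ± 0.31, adjusted p = 0.0045), while its second, dimmer probe set had changes of -0.59 and 0.68 that did not pass.

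Of 9 SLC38 members, 1 rose and 2 fell in PG-haESCs, and 0 rose and 2 fell in ICSI ESCs, against MF cells. SLC38A6 (SNAT6) had 574, 672, 617, 747 and 946 in PG-haESCs, 608, 551 and 531 in ICSI ESCs and 363 and 418 in MF cells. It was 1.88-fold higher in PG-haESCs (log2 change 0.91 ± 0.27, adjusted p = 0.022), and the ICSI ESC change was 0.53 ± 0.27 (adjusted p = 0.16). The call was lost without MF array 1 (0.106). SLC38A9, the lysosomal arginine sensor of mTORC1, had 1374 to 2163 in PG-haESCs (median 1569), 1016 to 1765 in ICSI ESCs and 919 and 1215 in MF cells, and its changes of 0.63 and 0.24 against MF cells did not pass (adjusted p = 0.14 and 0.60). Both genes had a log2 change of 0.38 between PG-haESCs and ICSI ESCs, with 95% intervals from -0.11 to 0.87 for SLC38A6 and from -0.16 to 0.93 for SLC38A9.

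SLC38A4 (SNAT4), a gene imprinted in mouse and expressed there from the paternal allele, gave opposite answers on different probe sets. The brightest had 229, 182, 113, 81.0 and 192 in PG-haESCs, 136, 173 and 263 in ICSI ESCs and 1035 and 1269 in MF cells. On it SLC38A4 was lower in PG-haESCs (log2 change -2.89 ± 0.54, adjusted p = 0.0013) and in ICSI ESCs (-2.64 ± 0.55, adjusted p = 0.0026) than in MF cells. Another probe set had 327, 332, 799, 422 and 324 in PG-haESCs, 68.6, 318 and 205 in ICSI ESCs and 26.7 and 33.1 in MF cells, where both MF signals were dim. On it SLC38A4 was at least 3.56-fold higher in PG-haESCs (adjusted p = 0.0010) and at least 1.42-fold higher in ICSI ESCs (adjusted p = 0.014). A further one, also dim in MF cells, passed in the same direction (adjusted p = 0.028 and 0.034) and allows no fold, and the last did not pass. The direction of SLC38A4 against MF cells was therefore not settled. None of the 4 passed between the ESC groups, with -0.25 on the brightest (adjusted p = 0.98) and 1.27 on the second (adjusted p = 0.63).

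**Figure D4:**
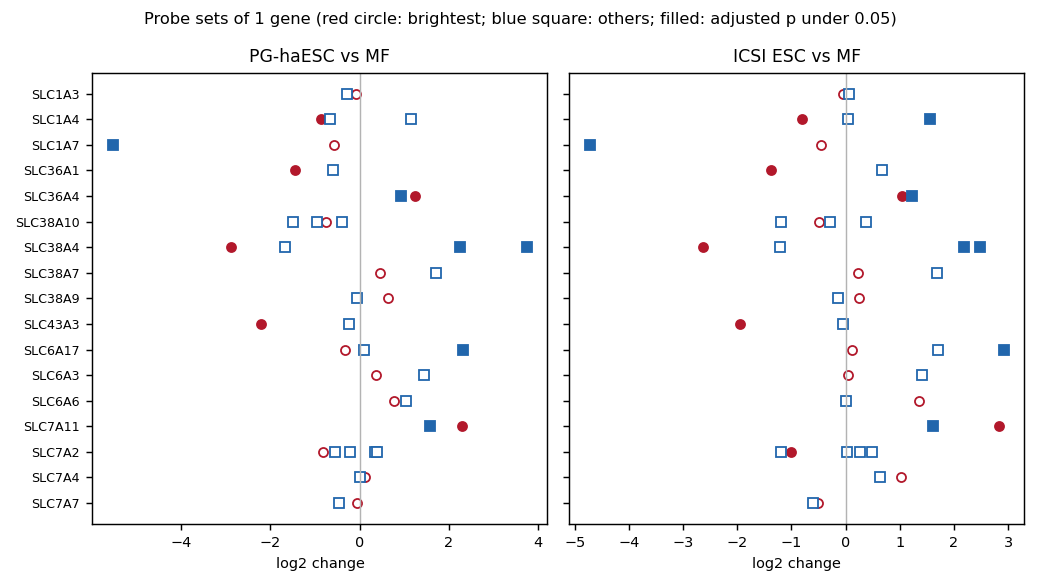
Log2 change of every tested probe set of the 17 members that have 2 or more, for PG-haESC vs MF and ICSI ESC vs MF, with the brightest probe set as a red circle, others as blue squares and filled symbols at an adjusted p under 0.05. SLC36A4 and SLC7A11 have filled symbols on the same side, whereas SLC38A4 in both panels, and SLC1A4 in ICSI ESC vs MF, have filled symbols on opposite sides of 0.

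Probe sets of 1 gene disagreed in sign for 5 of the 17 members with 2 or more tested probe sets between PG-haESCs and ICSI ESCs, for 5 between PG-haESCs and MF cells and for 7 between ICSI ESCs and MF cells. Calls in both directions were found for SLC38A4 against MF cells in both ESC groups and for SLC1A4 in ICSI ESCs. SLC38A11, read from 1 probe set, had 100.1, 120, 41.7, 76.0 and 49.4 in PG-haESCs, 29.4, 30.8 and 84.5 in ICSI ESCs and 398 and 239 in MF cells. In PG-haESCs SLC38A11 lay above the array median on only 1 array, which allows no fold there. It fell in PG-haESCs (log2 change -2.19, adjusted p = 0.047) and was at least 3.24-fold lower in ICSI ESCs (-2.86, adjusted p = 0.014), where the call was lost without MF array 1 (0.0963). The call in PG-haESCs was lost without any 1 of the 5 PG-haESC or 2 MF arrays (adjusted p from 0.0562 to 0.224).

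Of the 3 SLC43 members, SLC43A3, known in human as a purine nucleobase carrier, fell in both ESC groups. It had 67.6, 213, 148, 151 and 128 in PG-haESCs, 152, 122 and 207 in ICSI ESCs and 623 and 593 in MF cells. The log2 change was -2.20 ± 0.55 in PG-haESCs (adjusted p = 0.0081) and -1.96 ± 0.55 in ICSI ESCs (adjusted p = 0.016). The call in ICSI ESCs was lost without MF array 1 (0.0597) or 2 (0.0521), and a second probe set did not pass (-0.23 and -0.05). As for SLC6A8, the name of the brightest probe set marks probes that can match more than 1 transcript. SLC43A1 (LAT3), a carrier of branched-chain amino acids, had 190.4 to 312 in PG-haESCs, 210.2 to 391 in ICSI ESCs and 578 and 482 in MF cells, with changes of -1.11 (adjusted p = 0.053) and -0.76 (adjusted p = 0.18).

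The next list held genes of the ATF4 response to amino acid shortage and related stresses, with ATF4 itself and the kinase gene EIF2AK3 included. Of 15 tested, 3 were lower in PG-haESCs than in ICSI ESCs and 0 rose (median log2 change -0.58, all genes -0.02), beside 0.0687% of all genes called lower. The endoderm markers lay lower in PG-haESCs too (8 of 8 estimates, median -1.70), and their part in this result was not tested. This list was written with these calls known, so its direction is no independent evidence. DDIT3 (CHOP), a transcription factor of this response, had 1132, 1168, 1018, 956 and 1017 in PG-haESCs and 2363, 2993 and 3023 in ICSI ESCs (log2 change -1.40 ± 0.17, adjusted p = 0.0069). DDIT4, an inhibitor of mTORC1, changed by -1.56 ± 0.25 (adjusted p = 0.024), and CHAC1, which degrades glutathione, by -1.23 ± 0.24 (adjusted p = 0.048). The estimates of all 15 genes were below 0, from -1.76 for TRIB3 (adjusted p = 0.24) to -0.03 for NUPR1. Over the alternatives 0 to 4 of the 15 passed, with 1 when PG-haESC array 1 or 2 or ICSI ESC array 2 was left out, and 0 when ICSI ESC array 3 was. SLC7A11, SLC7A5, SLC1A5 and SLC7A1, which ATF4 is known to induce in human and mouse cells, had estimates of -0.53, -0.14, 0.07 and -0.88 in this comparison, none of which passed.

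Against MF cells the same list had 6 of 15 higher and 4 lower in PG-haESCs and 9 higher and 3 lower in ICSI ESCs (median log2 change 0.39 and 1.29), beside 23.0% of all genes called higher and 17.3% lower in PG-haESCs and 22.6% and 17.0% in ICSI ESCs. ASNS, which makes asparagine, averaged 10920 in PG-haESCs, 11840 in ICSI ESCs and 661 in MF cells, with log2 changes of 3.98 ± 0.30 (adjusted p = 1.4e-06) and 4.16 ± 0.30 (adjusted p = 1.2e-06). TRIB3, a pseudokinase induced by ATF4 and CHOP, was at least 7.68-fold and at least 24.6-fold higher (adjusted p = 0.00026 and 2.1e-05). DDIT3, DDIT4 and CHAC1 rose in ICSI ESCs by 1.79, 2.13 and 1.20 log2 (adjusted p = 5.0e-05, 0.00023 and 0.0072). In PG-haESCs their changes of 0.39, 0.57 and -0.04 did not pass (adjusted p = 0.18, 0.18 and 0.94). NUPR1, a stress-induced chromatin protein gene, fell by 6.07 and 6.05 log2 (adjusted p = 0.00026 and 0.0003). Of its ESC signals only 3 in PG-haESCs and 2 in ICSI ESCs lay above the array median, so these changes rest in part on dim signals.

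Amino acid metabolism genes had 14 of 26 higher and 3 lower in PG-haESCs, and 14 higher and 4 lower in ICSI ESCs, than in MF cells (median log2 change 0.98 and 1.08). The shares over all genes were 23.0% higher and 17.3% lower in PG-haESCs and 22.6% and 17.0% in ICSI ESCs. Between the ESC groups 0 of 26 passed (2 at an unadjusted p under 0.05, and 1 passing without ICSI ESC array 1). GCLC, the catalytic subunit of the first enzyme of glutathione synthesis, rose by 2.95 and 3.22 log2. BCAT1, which transfers the amino group of branched-chain amino acids, rose by 2.98 and 3.12, and AHCY, which clears S-adenosylhomocysteine, by 2.42 and 2.54, with adjusted p from 6.4e-07 to 3.1e-06 for these 3 genes. Among the genes that fell, BCAT2 had log2 changes of -2.56 in PG-haESCs and -2.77 in ICSI ESCs (adjusted p = 3.8e-05 and 2.4e-05). ARG1, the liver-type arginase, fell by at least 14.4-fold in PG-haESCs and 14.3-fold in ICSI ESCs (adjusted p = 0.0013 each). It was below the median on all 8 ESC arrays and so entered the test only through MF cells.

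Genes of amino acid sensing by mTORC1 had 4 of 24 higher and 4 lower than in MF cells in each ESC group (median log2 change -0.12 and -0.11), beside 40.3% of all genes called in PG-haESCs and 39.6% in ICSI ESCs. These counts are near the background and are no result about the list. With arrays centred on their medians 3 genes in PG-haESCs and 1 in ICSI ESCs passed, and without MF array 2 there were 3 in PG-haESCs. LAMTOR2, a subunit of the lysosomal Ragulator complex, rose by 1.14 and 1.05 log2 (adjusted p = 0.0033 and 0.0058), and LAMTOR3 of the same complex by 1.04 and 0.69 (adjusted p = 0.0018 and 0.021). SESN1, a member of the leucine-sensing sestrin family, fell by 1.31 and 1.66 (adjusted p = 0.0052 and 0.0012). The Rag GTPase gene RRAGC fell in both ESC groups too, with log2 changes of -0.79 and -1.09 (adjusted p = 0.026 and 0.0048). Of the 24 genes 0 passed between the ESC groups (2 at an unadjusted p under 0.05).

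Other amino acid and peptide carriers had 2 of 13 higher and 1 lower in PG-haESCs, and 3 higher and 2 lower in ICSI ESCs, than in MF cells (median log2 change 0.49 and 0.42). With 40.3% and 39.6% of all genes called, these counts are likewise no result about the list. Without MF array 1 the numbers that passed were 1 and 3, and without MF array 2 or ICSI ESC array 3 it was 2 in ICSI ESCs. The mitochondrial aspartate-glutamate carrier gene SLC25A13 rose by 1.53 and 1.75 log2 (adjusted p = 0.00065 and 0.00027) and the mitochondrial glutamate carrier gene SLC25A18 was at least 1.22-fold and at least 1.75-fold higher (adjusted p = 0.017 and 0.0039). SLC25A22, the second mitochondrial glutamate carrier, rose by 1.00 log2 in ICSI ESCs (adjusted p = 0.025). Its PG-haESC change of 0.64 did not pass (adjusted p = 0.13). SLC66A1, a lysosomal exporter of cationic amino acids, fell by 1.59 and 1.32 (adjusted p = 0.02 and 0.047). Of the 13 genes 0 passed between the ESC groups, also at an unadjusted p under 0.05.

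**Figure D5:**
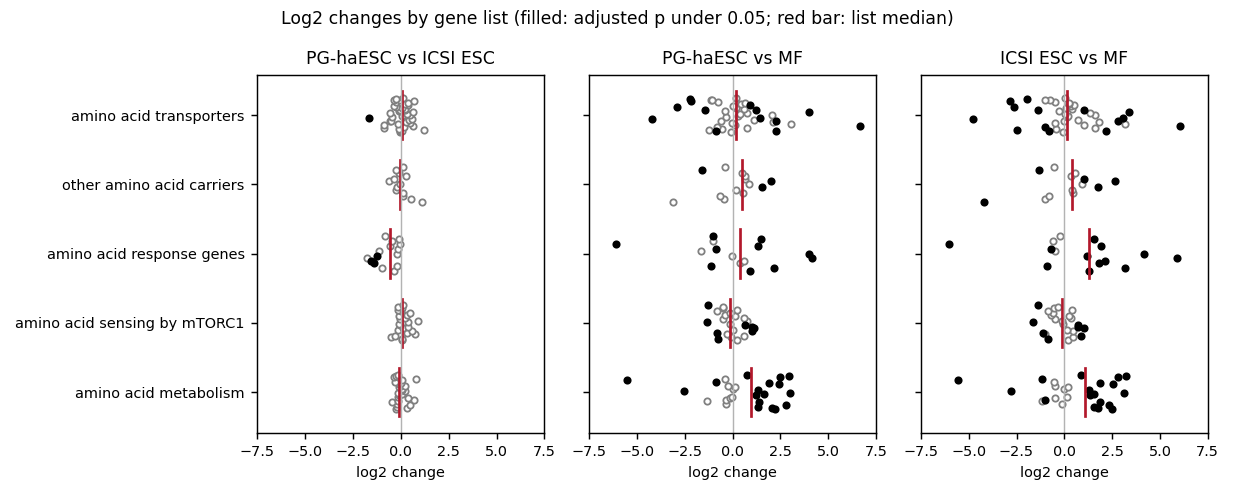
Log2 change of each tested gene (points, filled at an adjusted p under 0.05) and list median (red bar) for amino acid transporters and 4 other lists of amino acid genes in the 3 comparisons. The medians of the transporters lie at 0.07, 0.16 and 0.12, those of amino acid metabolism against MF cells at 0.98 and 1.08, and that of the amino acid response genes at -0.58 between PG-haESCs and ICSI ESCs.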

How the data were processed

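The deposited table holds linear signal intensity for 52865 probe sets on 10 arrays, made by the authors with MAS5, per the submitters' processing notes (release not given in the sources used here). TRIZOL-extracted RNA was labelled with a 3' IVT kit, per the labels' protocols. The trimmed mean (highest and lowest 2% left out) was 500 on all arrays, so a common scaling of the arrays had been applied. Array-level sources of difference such as scan date were not used here. The number of arrays limits the precision.

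All 10 arrays were fitted on the log2 scale with limma 3.58.1 in R 4.3.3 (group means, cell line as random block, estimated correlation 0.29, residual and prior degrees of freedom 7 and 5.37, variance trend with intensity, two-sided tests, Benjamini-Hochberg over 34140 probe sets). The 158 control probe sets were excluded. A signal above its array's median on at least 2 arrays was required. Calls had an adjusted p under 0.05. Log2 changes weight arrays by line and can differ from ratios of printed means. Symbols came from the platform annotation supplied with the data, and all 49 members matched the RefSeq gene table of T2T-MFA8v1.1, which gave chromosomes.

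Members and gene lists were chosen with earlier results of these data known. Named members were SLC6A15, SLC7A3, those called, the 6 of smallest p not called between PG-haESCs and ICSI ESCs, the brightest of each family role, heavy chains and the 3 of widest ESC range. From other lists, those called between ESC groups and the 3 of smallest p per MF comparison were named if called, with their values in both MF comparisons. Details of SLC7A1, SLC1A7, SLC6A17 and, beside the response genes, SLC7A5 were added after their values were seen. ARG1 and BCAT2 were named outside these rules.

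Alternatives were no line block, averaging per line or per description code, an offset of 32, quantile normalization, centring on array medians, no filter or a 75th percentile filter, dim signals raised to the array median, no variance trend, the mean of a gene's probe sets, only the groups compared, and leaving out each array. Counting the other gene lists under them was added after seeing the data. The code was tested on simulated data. Figures used matplotlib 3.10.9 in Python 3.11.15.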

Additional observations from a re-analysis of the deposited data

Results flagged for a closer look

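Among 39 members tested, 5 had a PG-haESC array far from the other 4, by a test of gaps that would mark about 1 in 20 groups by chance. On PG-haESC array 2 the taurine carrier gene SLC6A6 was high at 353, and SLC6A18, a neutral amino acid carrier gene, was high at 226. SLC38A1 (SNAT1, a glutamine carrier) was low there at 711 and SLC6A20 was low at 8.52, a dim signal. That array also had the highest median signal (133) and, among PG-haESC arrays, the highest mean of fibroblast and feeder markers (11.6 log2) and of endoderm markers (10.58 log2); their part was not tested. SLC36A4 was high at 2041 on PG-haESC array 5, the only array of line MPH2.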

How the results depend on the processing

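Between PG-haESCs and ICSI ESCs the 1 member called became 0 with arrays averaged per line or per description code, with quantile normalization, with centring on array medians, with the 75th percentile filter and without a variance trend, and leaving out arrays gave 0 to 1. The cause was not tested. Over all probe sets, centring left 14 calls, 21.4% of them higher, against 154 and 81.2%. Against MF cells the 13 members called in PG-haESCs became 7 with arrays averaged per line (fewer samples), and leaving out arrays gave 9 to 18, the lowest without MF array 1 and the highest without ICSI ESC array 1. The 14 called in ICSI ESCs ranged from 9 (without MF array 1) to 15. Of all probe sets called, 51.4% (PG-haESC) and 50.5% (ICSI ESC) were higher than in MF cells, and 63.7% and 61.6% with centring. Quantile normalization moved the median of all genes to 0.24 in both. Averaging a gene's probe sets turned SLC38A4 to 0.35 and 0.20 log2 in PG-haESCs and ICSI ESCs, and SLC1A4 to 0.27 in ICSI ESCs, none of which passed. SLC7A3, SLC7A11, SLC1A5 and SLC6A8 kept their calls against MF cells in all 22 alternatives in both ESC groups. ICSI ESCs and MF cells alone were fitted without the line block. No paired analysis was possible because the numbers in the titles name lines of ICSI ESCs and replicates of MF cells, and no label ties them.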

Other observations

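A second probe set differed from the brightest for another pair of members. SLC1A7 (EAAT5), a glutamate transporter of the retina, had 4.17 to 62.3 in PG-haESCs and 10.8 to 55.8 in ICSI ESCs on its second probe set, against 709 and 712 in MF cells, and all ESC signals lay below their array medians, so that this probe set was tested only through the MF arrays. Relative to MF cells, PG-haESCs had at least 7.54-fold and ICSI ESCs at least 7.47-fold lower SLC1A7 on it (limma, adjusted p = 0.012 and 0.029), while its brightest probe set did not pass (-0.57 and -0.45). SLC6A17, a vesicular carrier of neutral amino acids in neurons, rose in both ESC groups against MF cells on its second probe set (adjusted p = 0.019 and 0.0055). It was at least 1.40-fold higher in ICSI ESCs, and both MF signals were dim, which allows no fold for PG-haESCs, while its brightest did not pass (-0.33 and 0.12).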
